A study of Mus musculus with 6 samples.

Results

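The 10 hair keratin genes measured here were Krt31, Krt32, Krt33a, Krt33b, Krt34, Krt35 and Krt36 of type I and Krt82, Krt84 and Krt86 of type II. They were chosen by symbol among 15644 named genes, 1 probe set per gene, on Affymetrix arrays of dissected mouse skin. The mutant group was 3 skin samples labelled as a Hoxc13 knockout carrying the targeted allele Hoxc13tm1Mrc, and it was compared with 3 wild type skin samples. All 6 carried the labels C57BL/6, male and 5 dpn, and each group's samples were independent according to the design text. The sources used here do not say whether the mutant animals carried 1 or 2 copies of the allele. Hoxc13 encodes a homeobox transcription factor found in hair and nail, so the comparison asks how the shaft's own keratins stand when it is targeted. Values are log2 values made by RMA, a procedure that corrects background, gives all arrays a common distribution and summarises the probes of each probe set. A difference of 1 between values is therefore a 2-fold ratio.

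Hair keratins are the filament proteins of the hard, dead shaft. An acidic type I chain pairs with a basic type II chain, the pairs assemble into filaments, and keratin-associated proteins crosslink these through cysteines as the cell hardens. In human follicles the genes come on in sequence as cells climb from the bulb: KRT35 in the matrix and precortex, KRT31, KRT33A, KRT33B, KRT34, KRT36 and KRT86 in the cortex, and KRT32 and KRT82 in the cuticle that covers the shaft. Human KRT84 is known from the filiform papillae of the tongue. Compartments below are taken from human follicles and were not measured in these samples.

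Upstream sequence was available for 7 of the 10 genes, from RefSeq on GRCm38.p6, and not for Krt33a, Krt35 and Krt86. The sequences of 4 genes are shown because they span the range of changes and both types. They are the 250 bases before the annotated start, 5′ to 3′ on the strand of the gene, which is the minus strand in each. Capitals mark matches, on either strand, to a Hoxc13-type motif, TTAAT or TTTAT followed by any base and 2 purines.
Krt34, chr11:100041555-100041804: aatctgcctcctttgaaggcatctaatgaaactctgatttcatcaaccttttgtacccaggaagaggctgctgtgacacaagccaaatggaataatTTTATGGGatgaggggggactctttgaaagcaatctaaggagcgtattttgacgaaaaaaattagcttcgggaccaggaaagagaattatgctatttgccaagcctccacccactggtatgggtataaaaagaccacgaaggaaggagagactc
Krt32, chr11:100088270-100088519: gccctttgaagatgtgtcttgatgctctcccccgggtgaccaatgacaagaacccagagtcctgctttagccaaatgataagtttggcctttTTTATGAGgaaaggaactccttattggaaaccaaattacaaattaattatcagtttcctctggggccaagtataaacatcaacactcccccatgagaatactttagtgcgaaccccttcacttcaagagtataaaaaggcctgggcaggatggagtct
Krt82, chr15:101550660-101550909: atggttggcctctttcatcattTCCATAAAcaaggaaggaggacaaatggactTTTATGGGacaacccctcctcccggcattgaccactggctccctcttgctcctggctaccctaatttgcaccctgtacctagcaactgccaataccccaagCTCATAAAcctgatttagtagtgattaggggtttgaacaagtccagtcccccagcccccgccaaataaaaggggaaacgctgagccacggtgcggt
Krt84, chr15:101532821-101533070: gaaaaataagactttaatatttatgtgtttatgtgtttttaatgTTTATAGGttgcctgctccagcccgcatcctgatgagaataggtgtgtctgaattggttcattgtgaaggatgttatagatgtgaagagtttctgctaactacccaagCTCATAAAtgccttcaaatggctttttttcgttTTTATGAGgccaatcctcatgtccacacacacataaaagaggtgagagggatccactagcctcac

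Of the 7 upstream sequences, 6 held the Hoxc13-type motif, all on the strand of the gene, and Krt36 held none. The motif was present on either strand in 17.2% of the 32851 promoters of the same length in the RefSeq table, and on the strand of the gene in 10.3%. In the 4 type I genes that held it, the match on the strand of the gene began within a few bases of the same distance from the start: at -158 in Krt31 and in Krt32, -159 in Krt33b and -154 in Krt34. The type II genes held it elsewhere, at -197 in Krt82 and at -206 and -65 in Krt84, and each also had matches on the opposite strand. In these 6 genes a match on the strand of the gene overlapped the string TTTTATG, which was looked for after the sequences were seen. That string stood on the strand of the gene in 6 of 7 hair keratin promoters and in 1.70% of all promoters. Because it overlaps the motif match and was chosen from these sequences, this count is no separate evidence. The TATA motif TATAAA was found on either strand in 5 of the 7 and in 12.4% of all promoters. In Krt31 it overlaps a Hoxc13-type match on the opposite strand, and in Krt84 it was found only on the opposite strand, overlapping the Hoxc13-type match at -206. CTTTGA, the core bound by LEF1, a transcription factor of hair matrix cells, was found in the 4 type I genes Krt31, Krt32, Krt33b and Krt34 and in 13.8% of all promoters. A match is a run of letters in this window and does not show that a factor binds there.

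**Figure D1:**
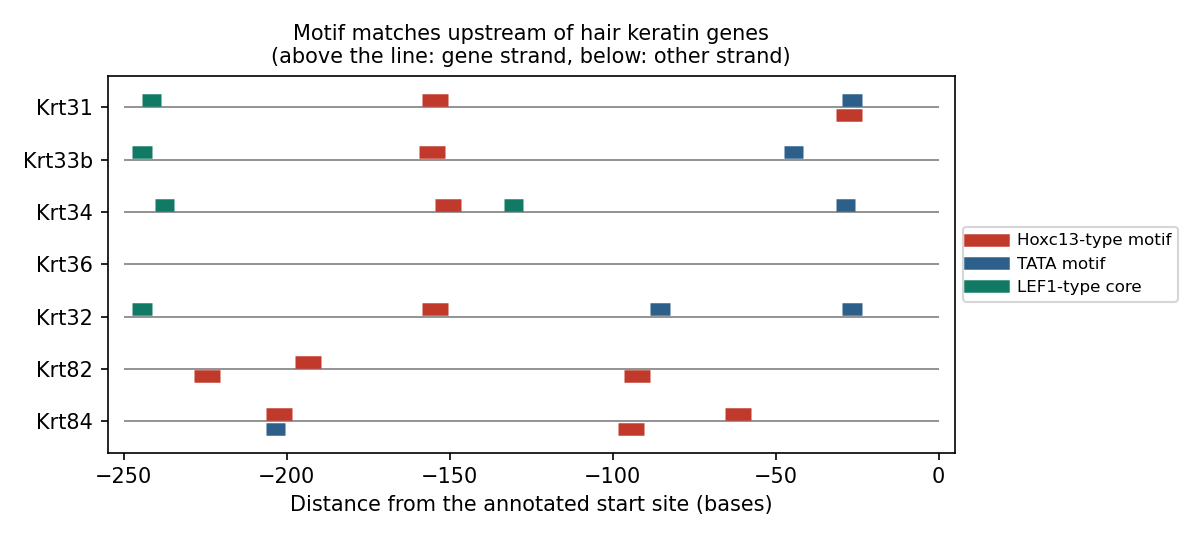
Positions of motif matches in the 250 bases upstream of 7 hair keratin genes. The horizontal axis is the distance from the annotated start in bases, and coloured blocks above and below each line are matches on the strand of the gene and on the other strand. Hoxc13-type blocks of Krt31, Krt33b, Krt34 and Krt32 on the strand of the gene line up between -159 and -147, Krt31 has a further one on the other strand at -31, and Krt36 has no block of any kind.

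A few facts of the arrays bear on what follows. Mutant replicate 3 correlated with mutant replicates 1 and 2 at 0.989 and 0.990 over all probe sets, against 0.997 between those 2, and results are given with and without it where it changes them. Xist, expressed from the inactive X, read 11.15 to 11.67 over the 6 arrays, while 5 Y-linked probe sets read between 2.98 and 4.89, which goes against the male label of both groups. Those Y-linked values are used below as a rough guide to background. The highest, 4.89, was Usp9y on mutant replicate 3, and without Usp9y they reached 3.93. The tissue label was checked with Krt5 and Krt14 of basal keratinocytes and Krt1 and Krt10 of the suprabasal layers, whose means lay between 12.56 and 14.02 in both groups. The Hoxc13 probe set read 8.95, 8.75 and 9.74 in mutant skin and 9.63, 9.81 and 9.83 in wild type skin. Its difference of -0.61 (SE 0.23) did not pass (limma adjusted p = 0.293). The sources used here do not say which part of the gene its probes read, so the labels are not checked by it. Probe affinities differ, so the order of values between genes is not an order of transcript levels, and a guide to background from other probe sets is only approximate. No detection calls were used. Nothing in the labels ties the samples to litters, and p-values reflect only how far these particular samples spread.

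All 10 hair keratins fell in mutant skin, by log2 values of -2.11 to -7.65, which is 4.30-fold to 201-fold on the RMA scale (limma, adjusted p between 3.32e-07 and 9.05e-04). The test called 2.08% of all 16331 probe sets, 1.6% lower and 0.478% higher. Without mutant replicate 3 it called 14.2%, with the balance turned to 7.95% higher and 6.23% lower, and all 10 hair keratins were again lower. Values were over 16-fold lower for 8 of the 10 and for 0.312% of all probe sets. The median change of the 10 genes was -6.28, beside 0.0247 over all probe sets. No mutant value overlapped a wild type value in any of the 10, where 20.3% of all probe sets had groups that did not overlap, 7.82% with mutant lower. The gap between the highest mutant and the lowest wild type value was 1.55 for Krt84 and 6.91 for Krt33a, the ends of its range over the 10. These genes were chosen with their response known, so the count describes them and is no independent evidence. In whole skin, fewer shaft-forming cells and less RNA in each such cell cannot be told apart.

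**Figure D2:**
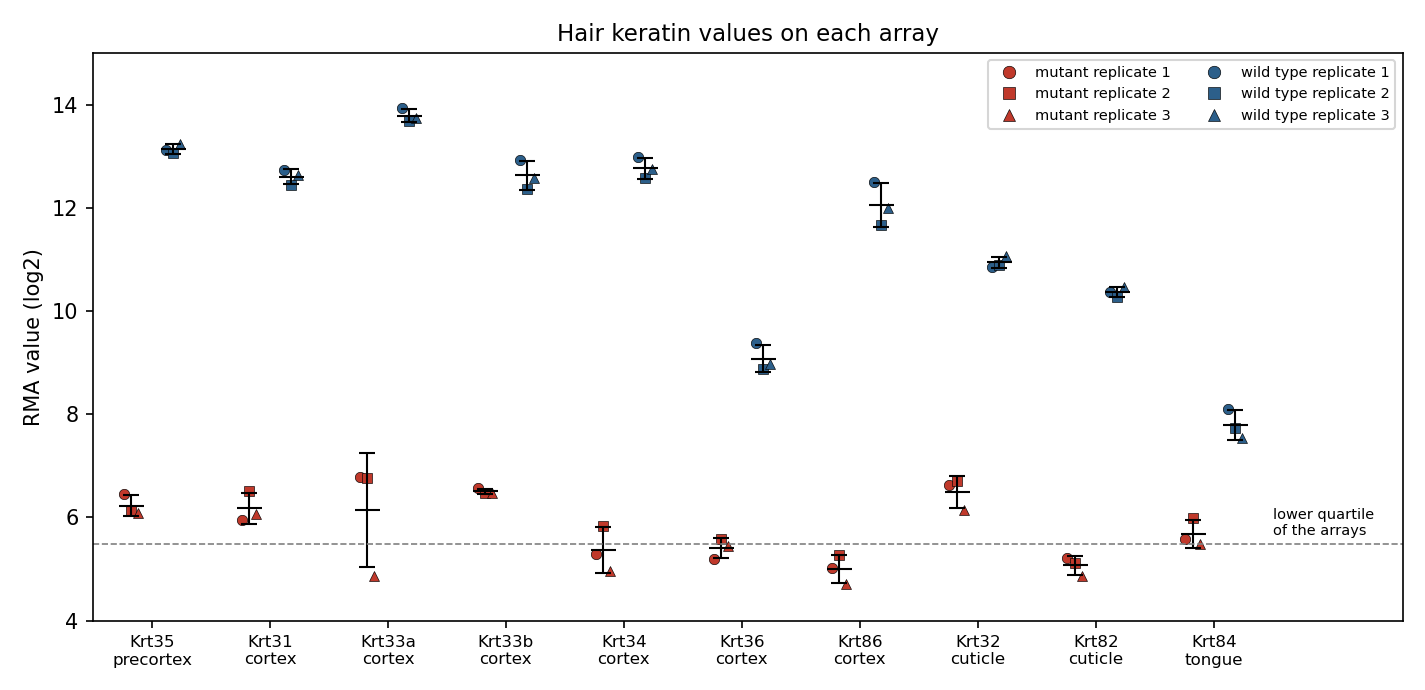
RMA values (log2) of the 10 hair keratins on each array, mutant on the left and wild type on the right of each gene, with black bars for the mean and SD of 3 arrays. The dashed line is the lower quartile of the arrays (5.49). All mutant values lie between 4.71 and 6.78 and all wild type values between 7.54 and 13.93.

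Krt35, the type I keratin that opens the sequence in the matrix and precortex, read 6.46, 6.13 and 6.09 in mutant skin and 13.11, 13.05 and 13.24 in wild type skin. The arrays of each group lay close together, with a range of 0.38 in mutant and 0.18 in wild type skin. Krt35 averaged 6.23 ± 0.21 in mutant skin and 13.14 ± 0.09 in wild type skin (SD, n = 3 each), a change of -6.91 (SE 0.11, limma adjusted p = 3.32e-07). Mutant values of this and the following genes lie below the median of the arrays (7.405), and signal was not separated from background here. The changes are therefore differences of RMA values, and no residual share of the wild type level is given.

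Among the cortex keratins, whose filaments fill the body of the shaft, Krt31 read 5.96, 6.52 and 6.06 in mutant skin and 12.73, 12.44 and 12.64 in wild type skin. Its change was -6.43 (SE 0.15, limma adjusted p = 7.08e-07). Krt34 read 5.30, 5.84 and 4.95 in mutant skin and 12.98, 12.57 and 12.75 in wild type skin. Mutant replicate 3 was the lowest for Krt34, and the change was -7.40 (SE 0.21, limma adjusted p = 2.38e-06). Krt31 and Krt34 are neighbours on chromosome 11, and the highest mutant and lowest wild type values were 5.92 apart for Krt31 and 6.73 apart for Krt34.

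Krt33a and Krt33b, a closely related pair of type I cortex genes, differed in how evenly the mutant arrays read. Krt33a read 6.78, 6.76 and 4.86 in mutant skin and 13.93, 13.69 and 13.74 in wild type skin. Mutant replicate 3 stood apart, at -1.91 from the mean of the other mutant arrays, and the mutant SD of 1.10 was the widest among the 10 genes. Its change of -7.65 (SE 0.47, limma adjusted p = 1.26e-04) was -7.01 without that array. Krt33b read 6.57, 6.47 and 6.47 in mutant skin and 12.93, 12.37 and 12.59 in wild type skin. Its mutant arrays spanned 0.0970, and the change was -6.13 (SE 0.14, limma adjusted p = 5.16e-07). Genes this close in sequence may share labelled RNA on the array, and the probe sequences were not used here, so the values of single genes of the pair are uncertain.

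Krt86, the type II keratin of the cortex, read 5.01, 5.27 and 4.71 in mutant skin and 12.50, 11.66 and 11.99 in wild type skin. Wild type replicates 1 and 2 were 0.84 apart, the widest wild type range of the 10 genes. The change was -7.05 (SE 0.22, limma adjusted p = 3.36e-06). Krt81 and Krt83, type II genes on either side of Krt86, had no probe set named here, so signal of theirs in the Krt86 value was not tested.

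Krt36, the last of the 6 cortex genes, read 5.19, 5.58 and 5.45 in mutant skin and 9.38, 8.87 and 8.98 in wild type skin. Its change was -3.67 (SE 0.15, limma adjusted p = 1.51e-05). Relative to the lower quartile of the arrays (5.49), the mutant mean lay at -0.0751 and the wild type mean at 3.59, so the decrease covered the whole distance to that level.

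The cuticle keratins fell as well. Krt32, the type I cuticle chain, read 6.63, 6.70 and 6.14 in mutant skin and 10.86, 10.90 and 11.07 in wild type skin, a change of -4.45 (SE 0.15, limma adjusted p = 4.68e-06). Krt82, the type II cuticle chain, read 5.21, 5.12 and 4.87 in mutant skin and 10.36, 10.28 and 10.47 in wild type skin, a change of -5.30 (SE 0.11, limma adjusted p = 3.93e-07). Wild type values of the cuticle pair spanned 0.21 and 0.19.

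Krt84, known in humans from the tongue, read 5.59, 5.99 and 5.48 in mutant skin and 8.11, 7.72 and 7.54 in wild type skin. The groups were 1.55 apart at their closest. The change was -2.11 (SE 0.18, limma adjusted p = 9.05e-04). Its wild type mean was 2.31 above the lower quartile of the arrays and its mutant mean 0.20 above it, so the decrease covered most of the distance to that level.

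**Figure D3:**
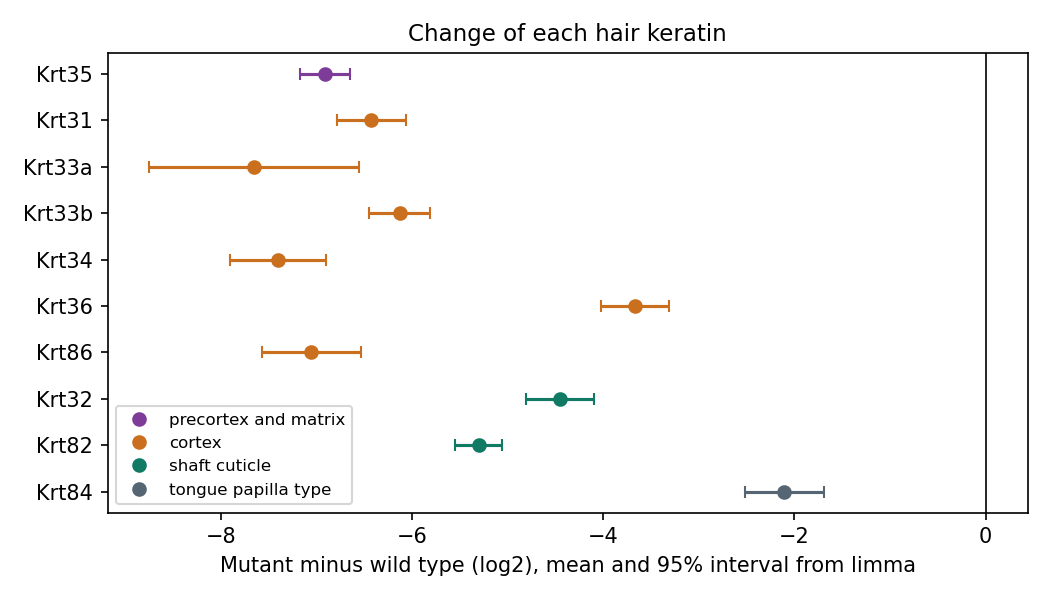
Change of each hair keratin, mutant minus wild type on the log2 scale, with 95% intervals from limma, coloured by compartment as known from human follicles. Krt35 and 5 of the 6 cortex genes lie between -6.13 and -7.65, the cuticle genes at -4.45 and -5.30, Krt36 at -3.67 and Krt84 at -2.11.

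By compartment, the median change was -6.74 over the 6 cortex genes, -6.91 for Krt35 and -4.88 over the cuticle pair. In 4 of the 10 genes the mutant mean lay below the lower quartile of the arrays. Only 3 of the 30 mutant values reached down to the highest Y-linked value (4.89), and all 3 were on mutant replicate 3, for Krt33a, Krt82 and Krt86. That level was Usp9y on the same array. Without Usp9y the Y-linked values reached 3.93, below every mutant value of the 10 genes (lowest 4.71). A gene cannot fall on these arrays by more than its wild type value stands above their low end, which limits comparing sizes. No mutant mean was at that end: the means lay between 4.996 and 6.50, where the lowest value of each array was 2.98. Those of Krt32 and Krt33b lay 1.00 and 1.02 above the lower quartile. Whether compartments differ in the size of the change was not tested.

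Mutant replicate 3 had the lowest mutant value for 7 of the 10 genes and lay below the mean of the other mutant arrays for 9, with a median difference of -0.30. The exception was Krt36, which was 0.0630 higher there. On mutant replicate 3, 23 of 35 keratin-associated protein genes also lay below the mean of the other mutant arrays. The direction is therefore not particular to hair keratins, but it was not general. All measured inner root sheath keratins lay above that mean, from 0.22 for Krt25 to 1.18 for Krt72. So did the desmosome, crosslinking and cuticle genes listed below except Selenbp1, and the listed transcription factors except Bcl11b and Trps1. The share over all probe sets was not counted. On the same array Hoxc13 was 0.89 above the mean of the other mutant arrays and, at 9.74, within the wild type range of 9.63 to 9.83. The median change of the 10 genes was -6.24 without mutant replicate 3.

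The wild type arrays also differed among themselves. All 6 cortex genes read highest in wild type replicate 1, next in replicate 3 and lowest in replicate 2. None of the other 4 genes did: Krt35, Krt32 and Krt82 were highest in wild type replicate 3, and Krt84 was lowest there. This order is not particular to the cortex: it was found in 16.5% of all probe sets, in 31 of 35 keratin-associated protein genes of all families (88.6%) and in 1 of 6 inner root sheath keratin genes. The median range over the wild type arrays was 0.45 for cortex genes, 0.20 for the cuticle pair, 0.92 for keratin-associated proteins and 0.16 for all probe sets. Genes of one tissue layer share each array's RNA, so these are not independent observations, and nothing in the labels says how the wild type animals differed.

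**Figure D4:**
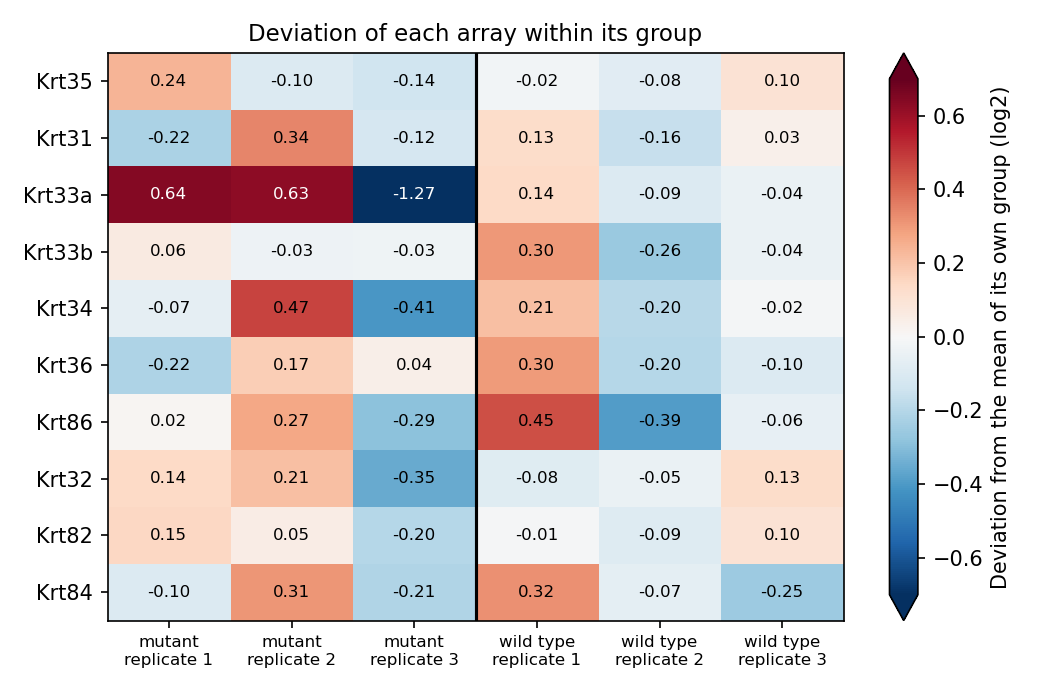
Deviation of each array from the mean of its own group (log2) for the 10 hair keratins, mutant arrays left of the black line and wild type arrays right of it. In wild type skin the cortex rows from Krt31 to Krt86 are positive in replicate 1 and negative in replicate 2, from 0.45 to -0.39 in Krt86, and Krt33a stands out in mutant replicate 3 at -1.27.

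The type I genes lie in a row on chromosome 11 in the order Krt33a, Krt33b, Krt34, Krt31, Krt32, Krt35 and Krt36, by the RefSeq table of GRCm38.p6. Beyond Krt33a lies Krtap17-1, a keratin-associated protein gene, which changed by -5.32 (limma adjusted p = 1.50e-04). Beyond Krt36 lies Krt13, a keratin of internal stratified epithelia, at -0.0937 (limma adjusted p = 0.615), but it read 3.77 in mutant and 3.86 in wild type skin, no higher than the Y-linked genes reached (4.89). The next gene, Krt15 of basal cells, was well above that level in both groups (12.46 in mutant and 12.59 in wild type skin) and differed by -0.13 (limma adjusted p = 0.614). On chromosome 15, the nearest gene analysed here beyond Krt82 is Krt75 of the companion layer, which read 11.85 in mutant and 12.04 in wild type skin and differed by -0.18 (limma adjusted p = 0.728). On the other side, Krt88 lies beyond Krt86 and Krt81. It read 6.92 in mutant and 7.06 in wild type skin and differed by -0.14 (limma adjusted p = 0.703). Krt88 was in none of the keratin lists used here.

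Of 29 listed keratins measured outside the shaft, 3 passed the test (10.3%), against 2.08% of all probe sets. Of 6 inner root sheath keratins, which build the sheath that moulds the shaft, 2 fell. Krt26 read 10.84 ± 0.24 in mutant skin and 12.74 ± 0.09 in wild type skin (SD, n = 3 each), a change of -1.90 (limma adjusted p = 1.72e-04). Krt72 changed by -2.20 (limma adjusted p = 0.0106), a call that was lost without any 1 of the wild type arrays or without mutant replicate 2 (range -2.60 to -1.98). The differences of the other 4 lay between -0.25 and 0.0470 and did not pass, with Krt25 at 14.10 in mutant and 14.11 in wild type skin. The median of the 6 was -0.18.

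Of 5 keratins listed here as companion layer and outer root sheath, 1 rose, Krt79, by 0.54 (limma adjusted p = 0.0435). That call was lost without any single array other than mutant replicate 3 (range 0.43 to 0.60). Layers were not measured in these samples, so the Krt79 rise is not placed in either layer. None of 7 epidermal keratins passed, with Krt2 closest (limma adjusted p = 0.181). Krt2 read 3.72 in mutant and 4.00 in wild type skin, below Y-linked Usp9y (4.58 and 4.57). The other Y-linked values reached 3.93. The Krt2 difference, at such low values, is not read here. None of 11 keratins of simple and other epithelia passed, with Krt18 closest at -0.82 (limma adjusted p = 0.195). Their class medians were 0.13, 0.0653 and -0.0473. Without mutant replicate 3, where limma called 6.23% of all probe sets lower and 7.95% higher, it called 3 inner root sheath keratins lower, 1 companion or outer root sheath keratin lower and 1 higher, 1 epidermal keratin lower (Krt2, at the low values above) and 1 higher, and 3 keratins of simple and other epithelia lower.

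**Figure D5:**
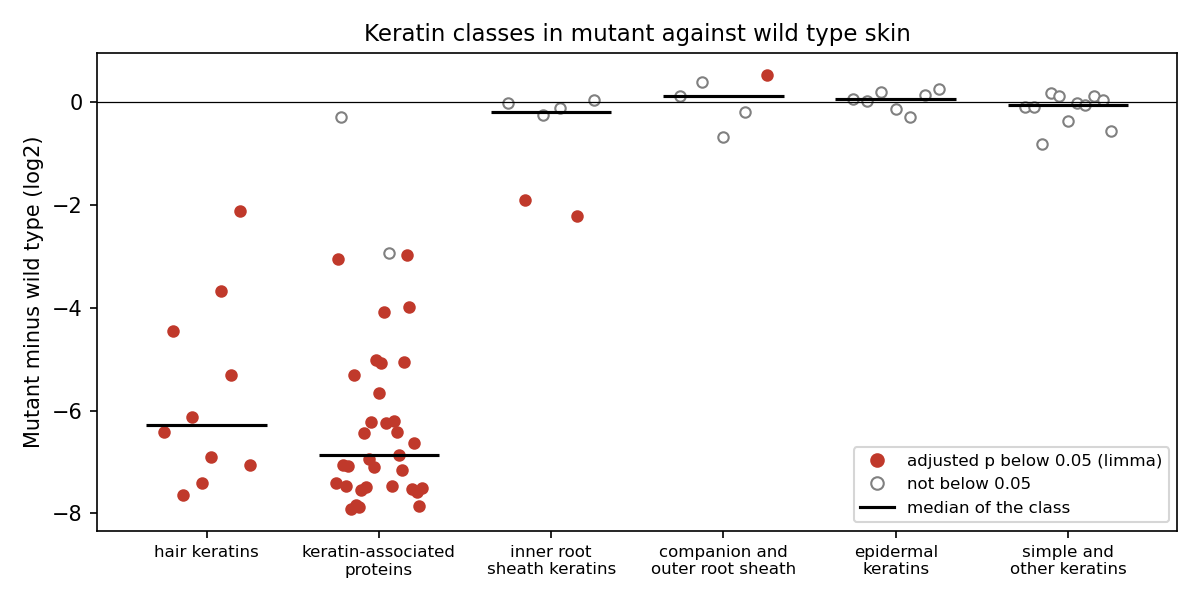
Change of every measured gene in the keratin and keratin-associated protein lists used here, mutant minus wild type on the log2 scale, by class. Filled points passed limma at an adjusted p below 0.05, open points did not, and black lines are class medians: -6.28 for hair keratins, -6.87 for keratin-associated proteins and between -0.18 and 0.13 for the other classes.

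The partners of hair keratins in the shaft were read as separate lists, and a difference between the lists was not tested. Of 35 keratin-associated protein genes, 33 fell and none rose, with a median of -6.87, where 1.6% of all probe sets were called lower. Krtap13-1 read 5.72 ± 0.24 in mutant skin and 12.78 ± 0.23 in wild type skin (SD, n = 3 each), a change of -7.06 (limma adjusted p = 5.12e-07). Krtap26-1 changed by -5.02 and Krtap14 by -7.47. Of 13 genes for shaft desmosomes, crosslinking and cuticle proteins, 5 fell and none rose, with a median of -0.33. These 13 did not move together, from -3.24 for S100a3 to 0.0717 for Dsp. The list is not confined to the shaft: Tchh is also among the inner root sheath markers below. S100a3, a calcium-binding protein of the hair cuticle, averaged 9.997 ± 0.31 in mutant skin and 13.24 ± 0.10 in wild type skin (SD, n = 3 each), a change of -3.24 (limma adjusted p = 2.85e-05). The selenium-binding protein gene Selenbp1 changed by -2.47 and the transglutaminase gene Tgm3 by -1.43. Without mutant replicate 3, 10 of the 13 were lower, against 6.23% of all probe sets.

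Among 15 transcription factors of the matrix and shaft, 2 fell and none rose, with a median of -0.0753. Over all probe sets, 1.6% were called lower and 0.478% higher. Foxn1, the factor mutated in nude mice, read 6.80, 6.80 and 7.07 in mutant skin and 8.23, 8.01 and 8.08 in wild type skin, a change of -1.21 (SE 0.10, limma adjusted p = 8.78e-04). Sox21, a factor of the hair cuticle, changed by -0.66 (limma adjusted p = 0.0103), a call lost without wild type replicate 2 or 3 (range -0.72 to -0.60). Without mutant replicate 3, 7 of the 15 were lower, against 6.23% of all probe sets.

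Other cells of the skin were followed with short marker lists, none of whose genes passed with all 6 arrays. The mean over 5 inner root sheath genes lay between 13.42 and 13.81 in mutant skin and between 13.64 and 13.74 in wild type skin. That list did not hold Krt26 and Krt72, the sheath keratins that fell by -1.90 and -2.20. It was chosen with earlier results known, so its level does not stand for all sheath genes. The mean over 2 genes of dividing cells lay between 10.14 and 10.46 in mutant skin and between 10.19 and 10.33 in wild type skin. Skeletal muscle markers (4 genes) had a median change of 0.62, with array means of 10.73 to 12.12 in mutant skin and 10.21 to 11.70 in wild type skin. Dermal fibroblast markers (4 genes) had array means of 13.49 to 13.61 in mutant skin and 13.47 to 13.58 in wild type skin. Dermal papilla markers (3 genes), from the cells that signal to the matrix, had a median change of 0.60, with array means of 6.91 to 7.91 in mutant skin and 6.72 to 6.86 in wild type skin. Median changes were 0.24 for 4 basal keratinocyte and for 3 fat cell markers, 0.0653 for 3 suprabasal markers and -0.26 for 4 melanocyte markers. Without mutant replicate 3, limma called all 3 dermal papilla markers higher (median 1.06), 2 of 5 inner root sheath and 3 of 4 melanocyte markers lower, and 1 of 4 skeletal muscle, 1 of 4 basal keratinocyte and 2 of 3 fat cell markers higher, in a fit that called 6.23% of all probe sets lower and 7.95% higher. The part of these cells in the hair keratin values was not tested.

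The genes closest to the hair keratins in pattern were sought over the 6 arrays by the root mean square distance between a gene's deviation from its own wild type mean and the median deviation of the 10 hair keratins. Of the 8 closest, 5 were keratin-associated protein genes: Krtap2-4, Krtap3-3, Krtap19-4, Krtap4-2 and Krtap4-16. The others were Vsig8, Psors1c2 and Calhm4. Vsig8, an immunoglobulin-domain protein gene, was closest, at a distance of 0.14. It read 5.62, 5.37 and 5.31 in mutant skin and 11.95, 11.54 and 11.70 in wild type skin, a change of -6.29 (SE 0.13, limma adjusted p = 3.93e-07). Psors1c2 was at a distance of 0.25 and changed by -5.96, and Calhm4, of a channel gene family, was at 0.37 and changed by -6.79. The distance rests mostly on the size of the difference between the groups.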

How the data were processed

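Skin RNA was amplified from oligo(dT) primers and labelled with biotin for Affymetrix arrays, as the labels' protocols say. The deposited values are log2 values that the authors made with RMA, per the submitters' processing notes, of unstated version. RMA equalises the distributions of the arrays, which hides any difference in total RNA, and it narrows differences close to background. Arrays hold no counts, and their number limits the precision.

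Of 16395 probe sets, 64 controls were left out and 16331 tested. The array annotation named 15644 and did not list 687. Groups followed the labels. limma 3.58.1 in R 4.3.3 (lmFit, eBayes, two-sided, no block) compared mutant with wild type skin, with Benjamini-Hochberg adjustment over all 16331 at 0.05. Tested on simulated data of that size (10 simulations, 200 probe sets changed), it recovered 66.8% of changes of 0.5 and 97.8% of changes of 1, with 5.97% false among calls. The simulated noise was normal, independent and equal over arrays, with no array standing apart as mutant replicate 3 does. These shares therefore do not describe the real arrays. Motifs were searched with Python 3.11.15. The hair keratins and all lists were chosen with earlier results of these data known. Named were all 10 hair keratins, up to 3 called genes with the smallest adjusted p in each list (otherwise the gene with the smallest p), and the 8 genes closest in pattern. Neighbouring genes, Krt25, Hoxc13 and marker genes were named beyond this rule. Alternatives were a filter on low means, repeated quantile normalisation, centring, a trended robust prior, array weights, no moderation, a replicate block and leaving out each array.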

Additional observations from a re-analysis of the deposited data

How the results depend on the processing

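Under 13 alternatives the 10 hair keratins gave 130 values, all lower in mutant skin, and 128 passed the limma threshold. The exceptions were Krt33a (adjusted p = 0.0521) and Krt84 (adjusted p = 0.0814) without variance moderation, where 8 of 10 passed. All 10 passed with the replicate number as a block and without any single array. Their median change ranged from -6.38 to -6.17 when single arrays were left out. The number of probe sets called, 339, depended on the arrays: it ranged from 151 to 2316 when 1 array was left out, was 2316 without mutant replicate 3 (1298 higher, 1018 lower) and 151 to 176 without any other array. It was 1880 with array weights (1041 higher, 839 lower), 84 without variance moderation and 197 with the replicate block. The deviations of the 3 same-numbered pairs of arrays correlated at 0.0360, -0.119 and -0.0873, and those of the other pairs at -0.121 to 0.237. With 3 arrays per group and mutant replicate 3 standing apart, this cannot show whether samples were paired. The cause of the differences in the number called was not tested. Residual levels near the lower end of the arrays could not be separated from background.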
